A study of Mus musculus with 4 samples.

Results

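Caveolae are flask-shaped pits of the plasma membrane, and 8 genes whose products build, coat or close them in endothelium were followed here: the caveolins Cav1 and Cav2, the cavins Cavin1, Cavin2 and Cavin3, the EHD ATPases Ehd2 and Ehd4, and the diaphragm gene Plvap. They were chosen by gene symbol. All 8 were found among the 31054 gene rows of the mRNA matrices, and all 8 were among the 10770 genes that passed the low-count filter. Caveolin forms the membrane scaffold of the pit, cavins coat it on the cytoplasmic side, and EHD ATPases ring its neck. In capillaries and venules the mouth of many caveolae and fenestrae is spanned by a thin diaphragm made of the glycoprotein PLVAP. Endothelium is among the tissues richest in caveolae, which there take part in uptake and transport across the vessel wall and in nitric oxide and lipid signalling.

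The cells came from ears of C57BL/6 mice at postnatal day 8, a stage at which the ear vasculature is still growing. They were enriched magnetically for CD31, and live cells were sorted that carried CD31 and a red reporter recombined by Cdh5CreERT2, an inducible Cre driven by a pan-endothelial promoter, so every cell compared carries those alleles. From the same cells, 10x 3' v3 libraries of mRNA and of antibody tags were made in 2 biological replicates, and the sources used here do not give how many animals each replicate pooled. Adult and wounded ears of the study were not analysed here.

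The mRNA libraries held 15989249 and 26675353 unique molecular identifiers (UMIs) in 1745 and 2877 barcodes, and the filters retained 1500 and 2250 cells with a median depth of 8461 and 9006.5 UMIs (library 1 first here and below). They shared 3 barcodes, 1 of them kept in both. The endothelial label held: Pecam1 had a UMI in 97.5% and 96.6% of kept cells and Cdh5 in 96.2% and 95.6%, whereas the leukocyte gene Ptprc had one in 0.267% and 0.311%. The reporter row had a UMI in 37.1% and 38.7% of kept cells, although all had been sorted for its protein. Of 3750 kept cells, 2530 were placed by marker genes, none of them one of the 8, into lymphatic (290 and 601), tip (124 and 237), capillary (144 and 229), artery (261 and 270) and vein classes (177 and 197). Tip cells lead vascular sprouts. Median depths differed between classes, at 8964.5 and 10285 UMIs in lymphatic, 9259 and 10851 in tip, 6973 and 7220 in capillary, 6825 and 6474 in artery and 9157 and 10167 in vein cells. A class is a set of cells that passed a marker count. Leiden clusters were built without these genes and named by the marker list with the highest mean z-score. Clusters highest for the tip list (0.482 and 0.595) scored 0.320 and 0.541 on the capillary list, and were counted as capillary by rule. Of the 373 gated capillary cells, 101 lay in clusters highest for the vein list (0.247, 0.331 and 1.29).

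The promoters of 4 of the genes are shown because their mRNAs had different orders of mean level over the classes: Cav1 and Cavin1 were highest in artery and lowest in lymphatic cells, Cavin2 was highest in lymphatic cells and Ehd4 in vein cells. For 2 of them the highest class was not set apart from vein cells, next in order. These were Cavin1 in artery (edgeR quasi-likelihood test, adjusted p = 0.262) and Cavin2 in lymphatic cells (0.158). Each line gives 250 bases before to 50 bases after a RefSeq gene start on GRCm38.p6, 5′ to 3′ on the gene's strand, with the GC box GGGCGG and the ETS core GGAAG of either strand in capitals.
Cav1, chr6:17306085-17306384, plus strand: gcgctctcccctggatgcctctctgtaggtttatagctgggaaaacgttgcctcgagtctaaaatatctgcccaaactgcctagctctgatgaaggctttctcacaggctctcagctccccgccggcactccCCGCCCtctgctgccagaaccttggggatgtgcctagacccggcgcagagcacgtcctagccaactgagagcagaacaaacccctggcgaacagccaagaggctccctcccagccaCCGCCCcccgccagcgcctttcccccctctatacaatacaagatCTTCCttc
Cavin1, chr11:100970568-100970867, minus strand: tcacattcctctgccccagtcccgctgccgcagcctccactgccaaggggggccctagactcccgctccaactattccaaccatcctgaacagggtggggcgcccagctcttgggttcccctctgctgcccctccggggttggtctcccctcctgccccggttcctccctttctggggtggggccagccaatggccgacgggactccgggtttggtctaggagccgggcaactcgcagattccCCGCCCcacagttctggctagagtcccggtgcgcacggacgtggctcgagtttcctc
Cavin2, chr1:51288876-51289175, plus strand: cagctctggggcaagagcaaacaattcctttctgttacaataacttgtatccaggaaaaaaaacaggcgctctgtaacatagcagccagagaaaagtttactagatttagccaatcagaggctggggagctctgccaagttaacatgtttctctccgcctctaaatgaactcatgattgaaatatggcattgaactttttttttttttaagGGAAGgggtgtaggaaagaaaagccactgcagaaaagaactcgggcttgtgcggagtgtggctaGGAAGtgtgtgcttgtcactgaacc
Ehd4, chr2:120154526-120154825, minus strand: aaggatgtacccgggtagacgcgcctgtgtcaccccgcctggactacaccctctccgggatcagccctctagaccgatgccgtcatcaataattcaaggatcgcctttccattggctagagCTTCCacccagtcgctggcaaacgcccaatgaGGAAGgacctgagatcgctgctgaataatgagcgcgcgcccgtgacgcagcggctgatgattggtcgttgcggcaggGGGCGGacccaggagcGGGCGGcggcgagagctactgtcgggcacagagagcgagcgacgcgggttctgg

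The RefSeq table had entries for 6 of the 8 genes, in 8 windows, and none for Cavin3 and Plvap. GC boxes numbered 2 in the first Cav1 window, 2 each in Cav2, Ehd2 and Ehd4, 1 in each Cavin1 window and 0 in Cavin2, where 35.7% of all 32851 promoters of this length held one. ETS cores numbered 1 in Cav1, 3 in Cav2, 2 in Cavin2, 2 in Ehd4 and 0 in Cavin1 and Ehd2, against 71.4% of all promoters with at least 1. The Cavin2 window was poorest in G and C, at 43.3% against a median of 52.7% over all promoters, and the others lay between 59.3% and 67.0%. Searched on both strands as well were the CCAAT box CCAAT (37.4% of all promoters; 3 in Ehd4, 1 each in Cav2, Cavin2, Ehd2 and Cavin1, 0 in Cav1), the CACCC box CACCC (57.5%; 3 in Ehd4, 2 in Cavin1, 1 in Cavin2 and in the second Cav1 window), the AP-1 site TGACTCA (5.20%; 1 in Cav2) and the FOX core GTAAACA (3.65%; 0 in all 8 windows). Motifs of different kinds overlapped by 1 base in Ehd4 and by 0 bases elsewhere. These are letter matches, not sites of binding.

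Levels are given as CPM, the UMIs of a gene per 1e+06 UMIs of all genes, summed over the cells of a class in a library, with TMM scaling. As 3' UMIs were counted, they compare classes for 1 gene. All 8 genes differed between the 5 classes in an F test over the 10 sums (edgeR quasi-likelihood test, adjusted p from 3.32e-09 for Ehd4 to 0.0127 for Cavin3), where 48.9% of all genes passed. The F test of Cavin3 missed the threshold under DESeq2 (adjusted p = 0.197), without the replicate block (0.185), with the looser gate (0.0757) and with the stricter cell filter (0.104). Of the 80 tests of a gene between a pair of classes, 52 passed, where 22.8% of such tests passed over all genes: 8 of 10 pairs each for Cav1, Cavin2 and Plvap, 7 each for Cav2, Ehd2 and Ehd4, 4 for Cavin1 and 3 for Cavin3. Of the 52, 34 passed under all 11 alternatives that could be run for pairs, and 18 missed the threshold under at least 1. The highest class exceeded the lowest 11.7-fold for Plvap and 9.97-fold for Ehd4, 2.65-fold for Cav1, 2.37-fold for Ehd2, 2.21-fold for Cavin1, 2.00-fold for Cav2, 1.96-fold for Cavin2 and 1.25-fold for Cavin3. So the diaphragm gene and 1 EHD gene varied most between vessel types, and Cavin3 least. The p-values rest on 2 libraries per class. The fit leaves 4 residual degrees of freedom, to which the quasi-likelihood test adds prior ones borrowed over all genes. In sums over cells, less RNA per cell and fewer expressing cells cannot be told apart. The shares of cells given further on do not part them either, as a lower level alone lowers a share at a fixed depth.

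**Figure D1:**
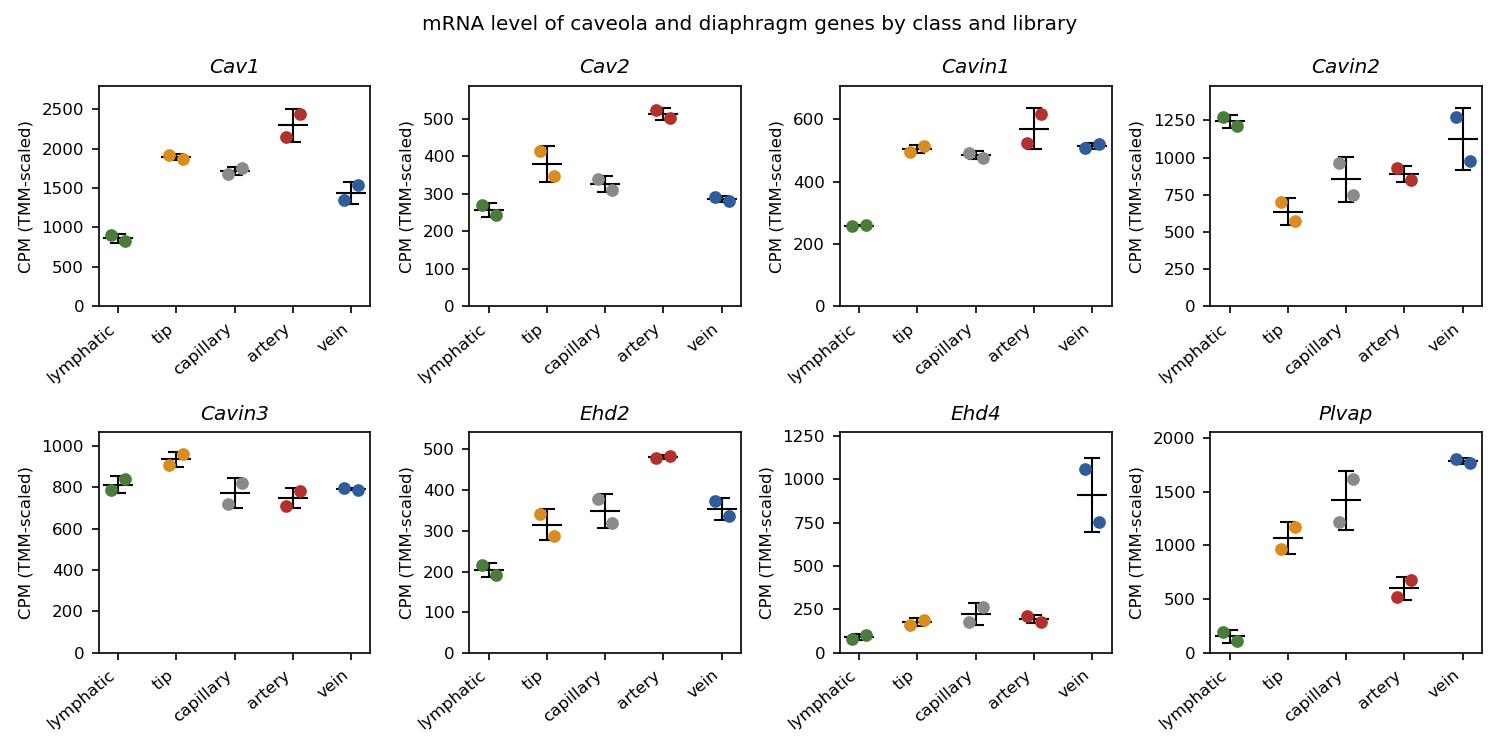
Level of each of the 8 genes (y axis, TMM-scaled CPM, from 0) in 5 endothelial classes (x axis). Points are libraries 1 (left) and 2 (right), and the bar with whiskers is their mean ± SD (n = 2). By mean, Cav1, Cav2, Cavin1 and Ehd2 are highest in artery cells, Ehd4 and Plvap in vein cells, Cavin2 in lymphatic cells and Cavin3 in tip cells. For Cavin1, Cavin2 and Plvap the highest class did not differ past the threshold from the next.

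Cav1, whose product is the scaffold without which endothelial caveolae do not form, was highest in artery and lowest in lymphatic cells. It reached 904 and 825 CPM in lymphatic, 1918 and 1868 CPM in tip, 1684 and 1756 CPM in capillary, 2146 and 2440.5 CPM in artery and 1342 and 1532 CPM in vein cells. The libraries of lymphatic and artery cells did not overlap those of any other class, in opposite directions. Artery cells exceeded tip cells, next in the order (log2 change -0.28 ± 0.08 SE, adjusted p = 0.0185, tip minus artery), a call lost under 4 of 11 alternatives (adjusted p up to 0.327). Vein cells exceeded lymphatic cells (log2 change -0.73 ± 0.08 SE, adjusted p = 2.70e-06, lymphatic minus vein). Tip and capillary cells (log2 change 0.14 ± 0.08 SE, adjusted p = 0.495) and capillary and vein cells (log2 change 0.26 ± 0.08 SE, adjusted p = 0.0849) did not differ past the threshold.

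Cav2, a partner that assembles with caveolin-1 and depends on it to reach the cell surface in many cell types, reached 269.8 and 244 CPM in lymphatic, 414 and 347 CPM in tip, 341 and 310.3 CPM in capillary, 525 and 503 CPM in artery and 292 and 282 CPM in vein cells. The order was that of Cav1, and artery cells again stood above all other classes in both libraries. Artery cells exceeded tip cells (log2 change -0.44 ± 0.09 SE, adjusted p = 0.00132, tip minus artery), but not past the threshold without dividing cells (adjusted p = 0.0727). No other neighbouring pair passed, including lymphatic and vein cells (log2 change -0.16 ± 0.09 SE, adjusted p = 0.169). Cav2 UMIs per Cav1 UMI were 0.297 ± 0.00193 in lymphatic cells (SD, n = 2) and 0.190 ± 0.0182 in capillary to 0.225 ± 0.0273 in artery cells among the blood classes, so Cav2 was less reduced than Cav1 in lymphatic cells; the difference of these ratios was not tested. Cav2 and Cav1 are neighbours on mouse chromosome 6 (GRCm38, GENCODE vM21), at chr6:17281185-17289115 (ENSMUSG00000000058) and chr6:17306335-17341452 (ENSMUSG00000007655), both on the plus strand and 17219 bases apart, and like all 8 genes they are annotated as protein-coding. The antisense gene Gm15581 overlaps both, and its own row held at most 0.555 CPM.

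Cavin1, the coat protein that caveolae need to form (ENSMUSG00000004044, chr11:100956733-100970887, minus strand), had similar levels across blood classes and a step down in lymphatic cells. It reached 257 and 260.1 CPM in lymphatic, 495 and 514 CPM in tip, 494 and 477 CPM in capillary, 525 and 617 CPM in artery and 507 and 522 CPM in vein cells. Both lymphatic values were below all 8 blood values. Its 4 passing pairs were those of lymphatic cells with each blood class, the nearest being capillary (log2 change -0.91 ± 0.09 SE, adjusted p = 7.43e-07, lymphatic minus capillary). Among the 6 pairs of blood classes the largest difference, capillary minus artery, did not pass (log2 change -0.23 ± 0.09 SE, adjusted p = 0.0870).

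Cavin2, a phosphatidylserine-binding cavin that shapes the membrane of the pit (ENSMUSG00000045954, chr1:51289126-51302960, plus strand), went the other way. It reached 1275 and 1214 CPM in lymphatic, 701 and 571 CPM in tip, 962 and 747 CPM in capillary, 929 and 852 CPM in artery and 1271 and 975 CPM in vein cells. Tip cells were lowest in both libraries, and library 1 was above library 2 in all 5 classes. Lymphatic and vein cells did not differ past the threshold (log2 change 0.16 ± 0.08 SE, adjusted p = 0.158), nor did capillary and artery cells (log2 change -0.07 ± 0.09 SE, adjusted p = 0.666). Per Cav1 UMI there were 1.44 ± 0.0437 Cavin2 UMIs in lymphatic, 0.336 ± 0.0420 in tip, 0.498 ± 0.103 in capillary, 0.391 ± 0.0592 in artery and 0.791 ± 0.220 in vein cells (SD, n = 2). Per Cavin1 UMI the ratio was 4.81 ± 0.202 in lymphatic cells and 1.26 ± 0.214 in tip to 2.19 ± 0.451 in vein cells. The mix of caveolin and cavin mRNAs in lymphatic cells thus held a larger share of Cavin2 than that of any blood class in both libraries.

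Cavin3, a cavin bound to the coat and linked to caveolar trafficking (ENSMUSG00000037060, chr7:105480083-105482300, minus strand), was the most even of the genes. It reached 784 and 841 CPM in lymphatic, 909 and 960.4 CPM in tip, 719 and 822 CPM in capillary, 711 and 779.6 CPM in artery and 794 and 787 CPM in vein cells. Only the tip class stood apart from all others in both libraries. Its 3 passing pairs each had tip cells on the higher side, against lymphatic (log2 change -0.20 ± 0.07 SE, adjusted p = 0.0447, lymphatic minus tip), artery (log2 change 0.33 ± 0.07 SE, adjusted p = 0.00422) and vein cells (log2 change 0.24 ± 0.07 SE, adjusted p = 0.0400), while tip minus capillary missed the threshold (log2 change 0.28 ± 0.07 SE, adjusted p = 0.0658). These 3 calls were lost under 9 (lymphatic), 3 (artery) and 7 (vein) of 11 alternatives, so that whether Cavin3 differed between classes depended on the setting.

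Ehd2, the ATPase that holds caveolae at the surface by ringing their neck (ENSMUSG00000074364, chr7:15946958-15967567, minus strand), was like the caveolins highest in artery and lowest in lymphatic cells. Among blood classes its mean was lowest in tip cells, whereas those of Cav1 and Cav2 were lowest in vein cells. Ehd2 reached 216 and 191 CPM in lymphatic, 342 and 288 CPM in tip, 379 and 319.5 CPM in capillary, 478 and 485 CPM in artery and 372 and 335 CPM in vein cells. Artery libraries were above and lymphatic libraries below those of every other class. Artery cells exceeded vein cells (log2 change 0.45 ± 0.09 SE, adjusted p = 0.00217), and lymphatic cells lay below tip cells (log2 change -0.63 ± 0.09 SE, adjusted p = 5.40e-05). Vein, capillary and tip cells did not differ from each other past the threshold.

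Ehd4, an EHD ATPase of endosomal recycling that has also been placed at caveolae (ENSMUSG00000027293, chr2:120089175-120154606, minus strand), was highest in vein cells by a wide margin. It reached 80.4 and 102 CPM in lymphatic, 159.5 and 192 CPM in tip, 179.8 and 267 CPM in capillary, 212 and 179.5 CPM in artery and 1060.1 and 757 CPM in vein cells. Both vein libraries were above, and both lymphatic libraries below, those of every other class. Vein cells exceeded capillary cells (log2 change -2.01 ± 0.19 SE, adjusted p = 1.72e-05, capillary minus vein), and tip cells exceeded lymphatic cells (log2 change -0.95 ± 0.19 SE, adjusted p = 0.00109, lymphatic minus tip; 0.0812 with the stricter cell filter). Capillary, artery and tip cells did not differ from each other past the threshold. There were 2.55 ± 0.418 Ehd4 UMIs per Ehd2 UMI in vein cells and 0.407 ± 0.0517 in artery to 0.655 ± 0.256 in capillary cells among the other classes (SD, n = 2), so Ehd4 UMIs outnumbered Ehd2 UMIs in both vein libraries and in none of the 8 other sums.

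Plvap, the diaphragm gene (ENSMUSG00000034845, chr8:71497765-71511752, minus strand), had the widest range. It reached 194 and 112 CPM in lymphatic, 964 and 1176 CPM in tip, 1223 and 1615 CPM in capillary, 525 and 678 CPM in artery and 1806 and 1770.4 CPM in vein cells. Both libraries gave the order vein, capillary, tip, artery, lymphatic. Vein and capillary cells (log2 change -0.34 ± 0.19 SE, adjusted p = 0.448, capillary minus vein) and tip and capillary cells (log2 change -0.41 ± 0.19 SE, adjusted p = 0.357) did not differ past the threshold. Tip cells exceeded artery cells (log2 change 0.84 ± 0.19 SE, adjusted p = 0.00434; 0.104 with DESeq2), and artery cells exceeded lymphatic cells (log2 change -1.996 ± 0.20 SE, adjusted p = 9.36e-07, lymphatic minus artery). Plvap UMIs per Cav1 UMI were 0.175 ± 0.0553 in lymphatic, 0.566 ± 0.0897 in tip, 0.823 ± 0.137 in capillary, 0.261 ± 0.0237 in artery and 1.25 ± 0.135 in vein cells (SD, n = 2). Gtpbp3 overlaps Plvap on the other strand, with 9.98 to 19.3 CPM of its own, and the sources used here do not say whether counting used the strand.

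Lymphatic cells were set against the mean log level of the 4 blood classes, to ask whether the genes separate lymphatic from blood endothelium. Of the 8 genes 6 fell in lymphatic cells, 1 rose and 1 did not pass, where 43.9% of all genes passed, 22.0% higher and 21.8% lower. Read against those shares, decreases were more frequent among the 8 genes than among all genes. Their median log2 change was -0.93, against 0.01 over all genes tested. The largest decrease was that of Plvap (log2 change -2.91 ± 0.18 SE, adjusted p = 3.20e-09), followed by Ehd4 (log2 change -1.66 ± 0.16 SE, adjusted p = 4.01e-07), Cav1 (log2 change -1.06 ± 0.07 SE, adjusted p = 3.12e-09), Cavin1 (log2 change -1.001 ± 0.07 SE, adjusted p = 1.36e-08), Ehd2 (log2 change -0.86 ± 0.07 SE, adjusted p = 1.17e-07) and Cav2 (log2 change -0.52 ± 0.07 SE, adjusted p = 1.42e-05). The gene that rose was Cavin2 (log2 change 0.55 ± 0.06 SE, adjusted p = 3.80e-06). Cavin3 did not pass (log2 change 0.01 ± 0.06 SE, adjusted p = 0.922). Each of the 7 passing genes had the same direction in both libraries and under all 12 alternatives with a test. The decrease of Plvap was log2 -2.40 in library 1 and -3.45 in library 2. By pairs, 8 genes passed between lymphatic and tip (33.5% of all genes), 7 between lymphatic and capillary (31.8%), 7 between lymphatic and artery (43.5%) and 5 between lymphatic and vein cells (33.6%).

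Artery cells were set against vein cells, the ends of the arteriovenous axis. Here 3 genes were higher in artery cells, 3 were lower and 2 did not pass, with 21.3% of all genes past the threshold, 10.7% higher and 10.6% lower. The caveolins Cav1 (log2 change 0.67 ± 0.08 SE, adjusted p = 1.98e-05) and Cav2 (log2 change 0.84 ± 0.09 SE, adjusted p = 5.28e-06) and the neck gene Ehd2 (log2 change 0.45 ± 0.09 SE, adjusted p = 0.00217) were higher in artery cells. Lower were Ehd4 (log2 change -2.21 ± 0.18 SE, adjusted p = 5.43e-07), Plvap (log2 change -1.58 ± 0.19 SE, adjusted p = 2.59e-05) and Cavin2 (log2 change -0.32 ± 0.08 SE, adjusted p = 0.0127). Cavin1 (log2 change 0.15 ± 0.09 SE, adjusted p = 0.262) and Cavin3 (log2 change -0.09 ± 0.07 SE, adjusted p = 0.470) did not pass. The 3 changes of Cav1, Cav2 and Ehd2 and the 3 of the others cancelled, leaving a median of log2 0.03 over the 8 genes, against -0.0014 over all genes. Cavin2 lost its call under 4 of 12 alternatives (adjusted p up to 0.451) and Ehd2 under 1, the stricter cell filter (adjusted p = 0.246). The other 4 calls held under all 12. Immediate-early and stress genes, a list whose sum differed both between libraries and between classes of a library, came to 8943 and 12623 CPM in artery and 10748 and 13084 CPM in vein cells. Their part in these results was not tested.

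Tip cells were set against capillary cells, which also come from a growing ear and are not shown to be established vessels. The 11 capillary markers summed to 4679 and 4425 CPM in tip and 4332 and 3979 CPM in capillary cells. The gate limited tip markers in capillary cells but not capillary markers in tip cells, so the classes differ by tip markers. Only Cavin2 passed, lower in tip cells (log2 change -0.42 ± 0.09 SE, adjusted p = 0.0168), as 1 of 8 genes where 2.73% of all genes passed, 1.38% higher and 1.35% lower. The change was log2 -0.46 in library 1 and -0.39 in library 2, and it missed the threshold under 5 of 11 alternatives (adjusted p up to 0.653), among them DESeq2, no replicate block and leaving out dividing cells. Dividing cells, called from UMIs of cell cycle genes with no correction for depth, made up 37.1% and 57.4% of tip and 31.3% and 35.4% of capillary cells. Tip cells were deeper. Relative to all UMIs, the same genes summed to 1233 and 971 CPM in tip and 1218 and 1050 CPM in capillary cells. The part of depth in these shares was not tested. In dividing cells Cavin2 stood at 709 and 513 CPM in tip and 1214 and 739 CPM in capillary cells, and in the other cells at 719 and 653 CPM in tip and 835 and 701 CPM in capillary cells (CPM of the plain totals). The difference was thus larger among dividing cells in both libraries. Between tip and artery cells 6 genes passed (25.4% of all genes), and between tip and vein cells 6 (14.8%). Of those against vein cells the largest was Ehd4 (log2 change -2.36 ± 0.19 SE, adjusted p = 6.97e-07).

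Capillary cells were set against the mean log level of artery and vein cells. Only Ehd4 passed, lower in capillary cells (log2 change -0.91 ± 0.17 SE, adjusted p = 0.00388), with 6.84% of all genes past the threshold, 3.51% higher and 3.33% lower. It was log2 -1.39 in library 1 and -0.46 in library 2, and it missed the threshold under the stricter cell filter (adjusted p = 0.0617). As artery and vein cells moved apart, this mean hides opposite differences. Against artery cells 4 genes passed (16.1% of all genes), with Cav1 (log2 change -0.41 ± 0.08 SE, adjusted p = 0.00203), Cav2 (log2 change -0.66 ± 0.09 SE, adjusted p = 9.38e-05) and Ehd2 (log2 change -0.47 ± 0.09 SE, adjusted p = 0.00230) lower and Plvap (log2 change 1.24 ± 0.19 SE, adjusted p = 0.000339) higher in capillary cells. Against vein cells 2 passed (5.15%), Ehd4 and Cavin2 (log2 change -0.39 ± 0.09 SE, adjusted p = 0.0116), both lower in capillary cells. The calls of Ehd2 against artery cells and of Cavin2 against vein cells were lost under 2 and 3 of 11 alternatives (adjusted p up to 0.0779 and 0.356). Plvap had a positive difference from the mean of both that did not pass (log2 change 0.45 ± 0.16 SE, adjusted p = 0.118).

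**Figure D2:**
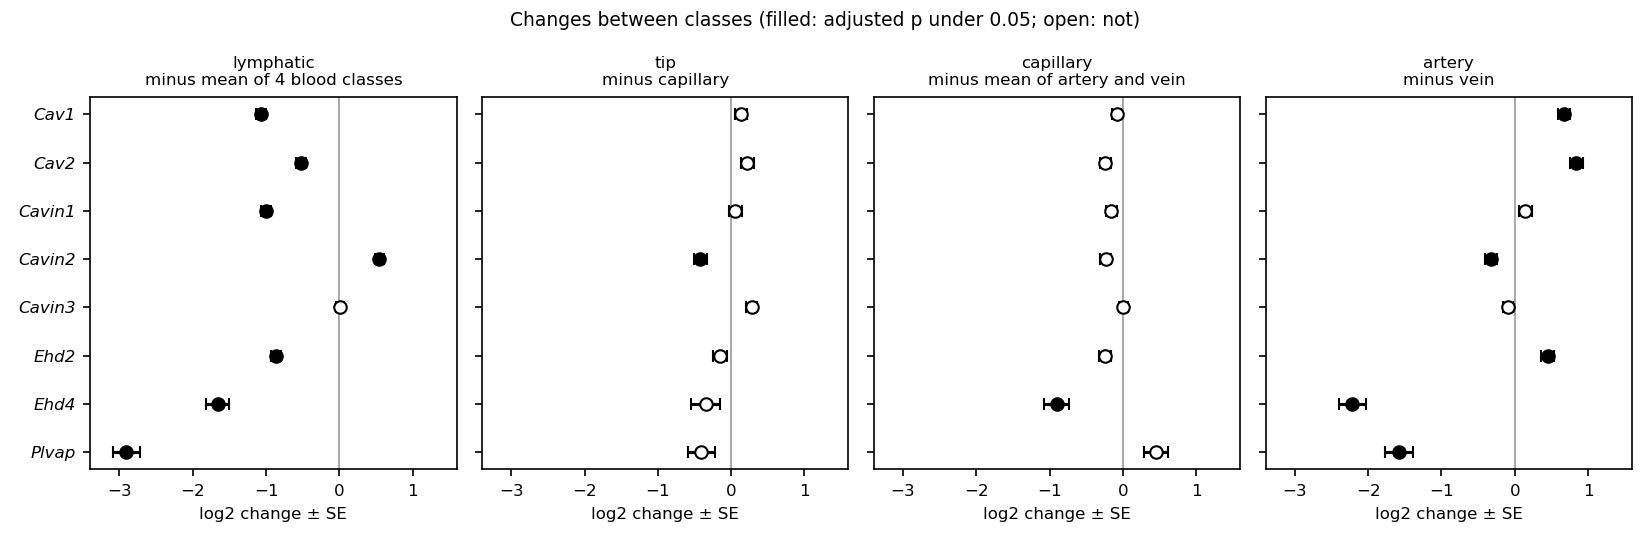
Log2 change ± SE of each gene (edgeR, x axis) in 4 comparisons (panels); filled points passed an adjusted p of 0.05 and open points did not. Of the 8 genes, 7 are filled in lymphatic minus blood classes, 1 in tip minus capillary, 1 in capillary minus the mean of artery and vein, and 6 in artery minus vein.

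The share of cells with at least 1 UMI was compared after each cell had been thinned to 4000 UMIs, which left out 13 lymphatic, 8 tip, 45 capillary, 57 artery and 9 vein cells that were shallower. Intervals are exact Clopper-Pearson 95% intervals and cover counting error only. Cav1 was near ubiquitous, with a UMI in 95.1% and 90.4% of lymphatic and 98.3% to 100% of cells in each blood class and library. Plvap had a UMI in 39.9% (34.1 to 45.8%) and 22.6% (19.3 to 26.2%) of lymphatic, 79.7% and 88.7% of tip, 84.6% and 95.1% of capillary, 46.3% and 65.5% of artery and 100% and 99.5% of vein cells. Without thinning the shares were 55.9% and 40.4% in lymphatic and 100% and 99.5% in vein cells. Ehd4 had a UMI in 20.6% (16.1 to 25.8%) and 28.4% (24.8 to 32.2%) of lymphatic, 39.8% and 54.8% of tip, 48.8% and 52.2% of capillary, 50.8% and 40.1% of artery and 86.2% (80.2 to 91.0%) and 76.4% (69.8 to 82.3%) of vein cells. Lower sums of Plvap in artery and lymphatic cells went with fewer cells in which it was seen, as a lower level alone would also give at a fixed depth.

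Within artery cells Plvap was uneven. The median artery cell held 0 and 1 thinned UMIs and the 90th percentile 6 and 8, whereas vein cells had medians of 7 and 6 and a 10th percentile of 3 in both libraries. Free RNA was gauged from the few cells with keratinocyte or immune markers and at most 1 of 4 pan-endothelial markers. In those 7 and 8 cells, with median depths of 16495 and 13158.5 UMIs, Plvap had 1 UMI in each library (7.71 and 9.39 CPM), Cav1 17 and 9 UMIs (131 and 84.5 CPM) and Ehd4 3 and 6 UMIs (23.1 and 56.4 CPM). After thinning, Plvap had a UMI in 0 of 6 and 0 of 7 of them (upper exact limits 45.9% and 41.0%), so the lymphatic share of cells with Plvap could not be set against a firm background at this number of cells, though the lymphatic level (201 and 109 CPM of the plain totals) was above that of those cells in both libraries. The 84 and 130 cells with at least 5 pericyte markers gave no background, since 84.5% and 75.4% of them also had 2 or more of the 4 pan-endothelial markers. In them Plvap stood at 578 and 622 CPM, with a UMI in 58.3% and 67.2% after thinning, above the lymphatic values.

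**Figure D3:**
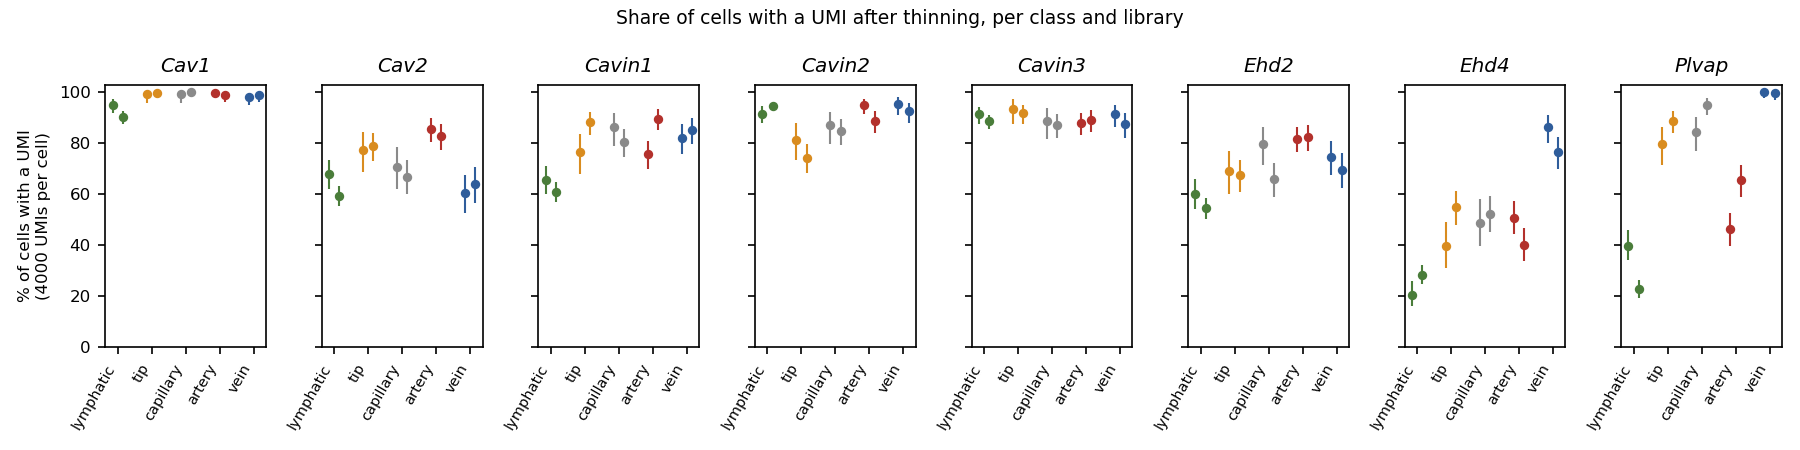
Share of cells with at least 1 UMI of each gene (y axis, %, after thinning to 4000 UMIs per cell) by class (x axis), library 1 left and library 2 right, with exact 95% intervals. Cav1 and Cavin3 are high everywhere, Plvap runs between 22.6% in lymphatic and 100% in vein cells, and Ehd4 between 20.6% in lymphatic and 86.2% in vein cells.

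Levels also moved with the number of a class's own markers seen in a cell, which is a description since the same cells are split. Ehd4 in vein cells stood at 718 and 519.8 CPM with 3 vein markers (64 and 93 cells), 1086 and 673 CPM with 4, 1514 and 1155 CPM with 5 and 1598 and 1125 CPM with 6 (11 and 15 cells). Plvap in artery cells stood at 917 and 1219.8 CPM with 5 artery markers, 563 and 705 CPM with 6, 569 and 505 CPM with 7, 363 and 413 CPM with 8 and 454 and 242 CPM with 9 (32 and 16 cells). Plvap in lymphatic cells stood at 407 and 281 CPM with 3 lymphatic markers and 250 and 196 CPM with 4. It stood at 253 and 71.1 CPM with 5 and at 139.9 and 110.3 CPM with all 6. Cells with the most class markers thus had more Ehd4 in veins and less Plvap in arteries and lymphatics than those with the fewest, though not at each step. Cav1 in artery cells changed little, at 2188 and 2088 CPM with 5 markers and 2300.4 and 2471 CPM with 9. In lymphatic cells Cav1 was lower with more markers, at 1286 and 1098 CPM with 3 and 861 and 798 CPM with 6. Median depth of vein cells was 14432 and 13985 UMIs with 6 markers, against 8464.5 and 9182 UMIs with 3. It did not rise at each step, and was 8931 and 10428 UMIs with 5 vein markers, against 9598 and 11090 UMIs with 4, a step at which Ehd4 was higher in both libraries. Artery cells had 9502.5 and 8579 UMIs with 9 markers, against 6018 and 5562 UMIs with 5. The part of depth in these results was not tested.

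**Figure D4:**
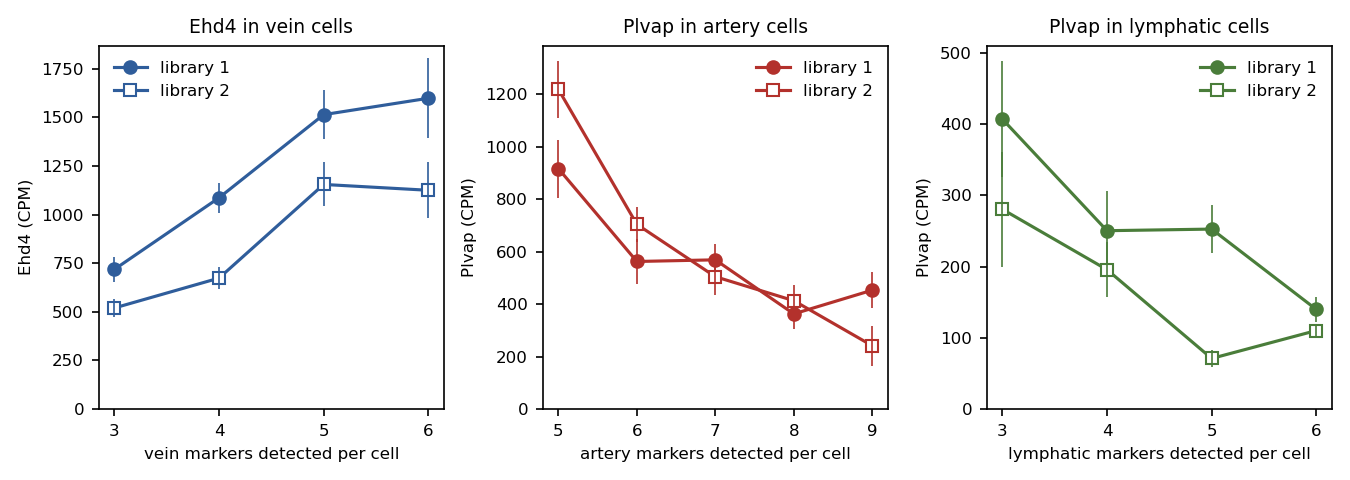
Level (y axis, CPM of summed UMIs, from 0) by the number of markers of its own class that a cell showed (x axis), for Ehd4 in vein and Plvap in artery and lymphatic cells. Filled circles are library 1, open squares library 2, and whiskers are 95% counting intervals. Ehd4 is higher in vein cells with 6 markers than with 3, and Plvap is lower in artery cells with 9 markers than with 5.

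Dividing cells, those with UMIs of at least 2 of 10 cell cycle genes, differed from the rest of their class for Ehd4 in veins. Ehd4 stood at 823 and 567 CPM in dividing and 1301 and 955 CPM in other vein cells. In lymphatic cells the order was the other way, with 100.01 and 119 CPM in dividing and 73.5 and 76.3 CPM in other cells. Cavin1 in tip cells was 397 and 459 CPM in dividing and 599 and 594 CPM in other cells. Without dividing cells, artery minus vein of Ehd4 kept its direction and its call.

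Across cells of 1 class and library the genes moved together weakly at equal depth. The median Spearman rho over the 28 pairs of genes was 0.04 and 0.06 in lymphatic, 0.06 and 0.05 in tip, 0.02 and 0.02 in capillary, 0.09 and 0.09 in artery and 0.07 and 0.09 in vein cells, after thinning. Single pairs ran from -0.35 to 0.37, and both of these were in tip or capillary cells. Without thinning, when cells also differ in depth, the medians were higher, from 0.22 in capillary to 0.46 in vein cells. The cells of a class share a library and sparse counts, in which correlations as weak as the thinned ones are no finding. Over the 10 class sums the levels of Cav1 and Cavin1 had a Pearson r of 0.92, Cavin1 and Ehd2 0.89, Cav1 and Ehd2 0.88, Cav1 and Cav2 0.86, and Cav1 and Cavin2 -0.70, where sums of 1 library share animals and chemistry.

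The genes whose class pattern was most like each member's were named by Pearson r over the 10 sums among 4623 well-measured genes. For Plvap they were Emcn, which encodes a sialomucin of capillary and venous endothelium (r = 0.99), Plpp3 (0.98) and Bace2 (0.97). Emcn averaged 166 CPM in lymphatic, 704 in tip, 781 in capillary, 397 in artery and 924 in vein cells, the order of Plvap. For Cav1 they were Uaca, Jcad and Notch4 (0.99, 0.99 and 0.98). Notch4, a Notch receptor of endothelium, averaged 2.29 CPM in lymphatic, 69.6 in tip, 49.5 in capillary, 123 in artery and 20.003 in vein cells. For Cav2 they were Map4k3, Dync1h1 and Icam2 (0.97, 0.97 and 0.96), for Cavin1 Fam129b, Emp3 and Nxpe4 (0.99, 0.98 and 0.98) and for Ehd2 Dab2ip, Pggt1b and Gna11 (0.98, 0.98 and 0.97). For Ehd4 they were Spint2, Itpr1 and Mtus1 (0.94, 0.93 and 0.93), for Cavin2 Ptms, Tmem238 and Tsn (0.95, 0.94 and 0.93) and for Cavin3 Mrfap1, Manf and Hnrnpa3 (0.94, 0.91 and 0.89).

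Other genes of the same machinery were followed in 4 lists. Of 13 accessory genes of caveolae 7 passed the low-count filter, and in lymphatic cells against blood classes 4 rose, 1 fell and 2 did not pass (22.0% of all genes rose and 21.8% fell in this comparison). The muscle forms Cav3 and Cavin4, and Ehd3, Pacsin1, Dnm1 and Ror1, were under that filter. Ehd1, an EHD paralogue of recycling endosomes, stood at 263 and 291 CPM in lymphatic, 192 and 177 CPM in artery and 102 and 65.4 CPM in vein cells (log2 1.57 ± 0.11 SE, adjusted p = 8.25e-09, lymphatic minus blood). Pacsin2, a membrane-bending F-BAR protein of endothelial caveolae, stood at 160.2 and 153 CPM in lymphatic and 68.3 and 57.7 CPM in vein cells, the blood class with the highest mean (log2 1.43 ± 0.08 SE, adjusted p = 1.15e-09). The rises of Ehd1, Pacsin2, Pacsin3 (log2 3.42 ± 0.28 SE, adjusted p = 6.15e-08) and Flot1 (log2 1.11 ± 0.11 SE, adjusted p = 4.51e-07) ran against the decreases of Cav1, Cavin1 and Ehd2. Dnm3, a dynamin, was the accessory gene that fell, at 13.8 and 17.1 CPM in lymphatic, 18.2 and 20.1 CPM in tip, 78.5 and 53.5 CPM in capillary, 63.1 and 55.0 CPM in artery and 151 and 117 CPM in vein cells. Like Ehd4 and Plvap it peaked in vein cells, and it was lower in tip than in capillary cells (log2 -1.71 ± 0.22 SE, adjusted p = 0.000794). The median over the 7 tested genes in lymphatic minus blood classes was log2 1.11, against 0.01 over all genes.

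Of 10 genes of caveola-linked signalling and transcytosis 8 were tested, and in lymphatic cells 7 fell, 0 rose and 1 did not pass, where 21.8% of all genes fell and 22.0% rose. Cd36, a fatty acid receptor, stood at 19.5 and 35.2 CPM in lymphatic and 876 and 735 CPM in capillary cells (log2 -4.46 ± 0.16 SE, adjusted p = 8.12e-12). Scarb1, which takes up HDL lipid, stood at 19.2 and 22.1 CPM in lymphatic and 472 and 668 CPM in capillary cells (log2 -4.30 ± 0.11 SE, adjusted p = 1.26e-13). Acvrl1, a BMP receptor of endothelium (log2 -1.59 ± 0.10 SE, adjusted p = 2.58e-09), Slc9a3r2 (log2 -1.56 ± 0.07 SE, adjusted p = 7.10e-11), the nitric oxide synthase Nos3 (log2 -0.98 ± 0.22 SE, adjusted p = 0.00158), Insr (log2 -1.01 ± 0.17 SE, adjusted p = 0.000180) and Kdr (log2 -0.36 ± 0.07 SE, adjusted p = 0.000666) fell as well. In tip against capillary cells 3 of the 8 fell, Cd36, Scarb1 and Slc9a3r2, and 0 rose, where 1.35% of all genes fell and 1.38% rose. The median over the 8 in lymphatic minus blood classes was -1.28.

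All 17 genes of the clathrin coat and its adaptors, the other main entry route, were tested, and in lymphatic cells 9 rose, 5 fell and 3 did not pass (median log2 0.29), where 22.0% of all genes rose and 21.8% fell. Dab2, an endocytic adaptor, stood at 207 and 183 CPM in lymphatic and 110.4 and 145 CPM in vein cells (log2 1.32 ± 0.11 SE, adjusted p = 9.88e-08). Bin1, a membrane-bending BAR protein, was low in artery cells, at 12.6 and 19.3 CPM in artery and 80.1 and 85.4 CPM in vein cells (log2 -2.38 ± 0.17 SE, adjusted p = 1.54e-07, artery minus vein). Of 10 genes of cholesterol supply, the lipid caveolae need, all were tested, and 8 rose, 1 fell and 1 did not pass in lymphatic cells (median log2 0.71), against the same 22.0% and 21.8% of all genes. Srebf2 (log2 0.75 ± 0.12 SE, adjusted p = 0.000125) and Fdps (log2 0.83 ± 0.14 SE, adjusted p = 0.000138) rose, and the cholesterol exporter Abcg1 was the 1 that fell (log2 -1.13 ± 0.16 SE, adjusted p = 2.13e-05). The list also holds the exporter Abca1, which did not fall past the threshold, so its counts do not part supply from export. By pairs, lymphatic cells differed past the threshold from tip cells in 7 of the 10 (33.5% of all genes) and from capillary cells in 8 (31.8%). From vein cells they differed in 10 (33.6%), but from artery cells in 1 (43.5%). Srebf2 stood at 36.3 and 44.4 CPM in lymphatic and 40.7 and 42.2 CPM in artery cells. Fdps stood at 37.5 and 70.3 CPM in lymphatic and 36.0 and 39.2 CPM in artery cells. In artery against vein cells 5 of the 10 rose and 1 fell, where 10.7% of all genes rose and 10.6% fell.

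Markers of other cell types were low in all 10 sums. The 8 pericyte and smooth muscle markers summed to 9.04 and 9.09 CPM in lymphatic and 46.0 to 67.2 CPM in blood classes, with 1 to 3 of them at 0. The 6 fibroblast markers summed to 24.3 and 36.1 CPM in lymphatic and 1.74 to 30.3 CPM in blood classes. Adipocytes are rich in caveolae, and all 5 of their markers were at 0 in 9 of 10 sums and 4 of them in the other, where they summed to 0.477 CPM. Leaving out cells with stromal UMIs changed none of the calls of the 8 genes in the 4 comparisons. Immediate-early and stress genes summed to 6207 and 5838 CPM in lymphatic and 5323 to 13084 CPM in blood classes, and were higher in library 2 in every blood class; Plvap was higher in library 2 in tip, capillary and artery cells, and the part of these genes in that was not tested.

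Last, capillary cells were split at the median share of VEGFR2 among a cell's antibody counts, within each library, as a readout of the same cells that the classes did not use. VEGFR2 is the main VEGF receptor of blood endothelium, and its median share was 2.78% and 2.91% in tip, 1.90% and 1.69% in capillary, 1.25% and 1.37% in artery and 0.820% in vein cells of both libraries. The VEGFR2 share was highest in lymphatic cells, at 6.21% and 5.36%, where a cell held a median of 36 and 46 tag counts and isotype controls took 2.67% and 2.92%. A share also falls when other antibodies take more counts. Median tag counts were 128 and 163 in tip and 111 and 130 in capillary cells. They were 107 and 108.5 in artery and 271 and 346 in vein cells. The part of these totals in the shares and in the split was not tested. Isotype control antibodies, added together and pooled over cells, took 0.902% and 1.26% of the counts in capillary cells. The VEGFR2 share there, 1.90% and 1.69%, is a median over cells for 1 antibody and so not the same measure. Even so, the background was of the same order as the tag. Cavin2 stood at 1168 and 757 CPM in the upper and 781 and 679 CPM in the lower part (log2 0.58 and 0.16). Plvap stood at 1054 and 1523 CPM in the upper and 1512 and 1602 CPM in the lower part (log2 -0.52 and -0.07). Median depth was 7397 and 7338 UMIs in the upper and 6505 and 7181 UMIs in the lower part, and its part in the differences was not tested. Kdr, the mRNA of VEGFR2, stood at 585 and 608 CPM in the upper and 515 and 469 CPM in the lower part. Over the 8 genes, Cav1, Cav2, Cavin1, Cavin2 and Ehd2 were higher and Cavin3, Ehd4 and Plvap lower in the upper part in both libraries. The means ran from log2 -0.30 ± 0.32 for Plvap to 0.37 ± 0.30 for Cavin2 (SD, n = 2), a spread of the size of the difference, while smaller differences such as that of Cavin3 (-0.076 ± 0.018) varied less. Between the upper and lower tercile of the cells, Ehd2 (log2 0.68 and -0.02) and Cavin3 (0.07 and -0.21) no longer had 1 direction in both libraries, and the other 6 genes did. How many of all genes had 1 direction in both libraries was not counted, and no test was made.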

How the data were processed

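Single-cell mRNA was read in 2 neonatal ear libraries, the antibody tags of the same cells in 2 more. The mRNA matrices hold raw UMI counts as the authors deposited them. Per the submitters' processing notes, Cell Ranger and Seurat 3.0.2 were used, with mm10 as the build and no role stated for either tool; the matrix headers give software version 3.0.2. The tag matrices hold deposited counts for each antibody, and the sources used here do not say whether these are UMIs or reads. The members, gene lists and tests were chosen with earlier results of these data known.

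Cells with at least 500 detected genes and at most 10% mitochondrial UMIs were kept, which left out 26 and 45 barcodes for too few genes and 240 and 616 for mitochondrial share. No correction for free RNA was made, and no doublet caller was run: cells with markers of several classes were left out by the gate, and leaving out the 5% of cells with most UMIs was an alternative. Xist and Y-linked UMIs met in 15 and 32 kept cells (1.00% and 1.42%). A class needed at least 2 of 4 pan-endothelial markers and at least 3 of 6 lymphatic, 3 of 5 tip, 4 of 11 capillary, 5 of 10 artery or 3 of 6 vein markers, with limits on markers of the other classes. These numbers were set after the marker counts, but no member, had been looked at. The gate left 315 and 453 endothelial cells without a class and 189 and 263 cells as not endothelial.

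For each class in each library the UMIs were added up and fitted with edgeR 4.0.16 in R 4.3.3 (quasi-likelihood test, TMM, filterByExpr by class, the library as a block, 4 residual degrees of freedom), with Benjamini-Hochberg adjustment over 10770 genes at 0.05. The block was used because every class was taken from the same libraries, so the same replicate number means the same animals. Standard errors are the log2 change over the square root of F. All 8 members are named, with the 3 genes most like each in Pearson r (average log2 CPM of at least 5; markers, members, predicted, mitochondrial and ribosomal genes left out) and up to 4 genes of each list with the smallest p in the F test, of which 1 is not reported here. In addition, accessory and signalling genes that passed in lymphatic cells (Flot1, Nos3, Insr, Kdr) and the list genes under the low-count filter were named after their values were seen. On simulated counts for tip minus capillary with 200 of 10770 genes changed, 50.5% of those changed 2-fold and 91% of those changed 4-fold were found, with 5.61% and 3.19% false calls. DESeq2 1.42.0 and scanpy 1.11.5 (Leiden) served the alternatives.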

Additional observations from a re-analysis of the deposited data

How the results depend on the processing

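Of the 15 passing changes of single genes in the 4 comparisons, 11 kept direction and call under all 12 alternatives with a test, and no alternative turned the direction of a passing change. The exceptions were Cavin2 in tip minus capillary and in artery minus vein, Ehd2 in artery minus vein and Ehd4 in capillary minus the mean of artery and vein. Of the 80 tests of a member between a pair of classes, 52 passed, and 41 with DESeq2, 39 without the replicate block, 39 with the stricter cell filter and 49 to 55 under the other alternatives; no passing pair changed direction. The number of genes passing the F test (5264) was 3184 with DESeq2 and 3235 with the stricter cell filter. In tip minus capillary (294 genes) it was 150 with DESeq2, 566 without the low-count filter, 37 with the looser gate and 116 with the stricter cell filter; members passing (1) were 0 with DESeq2, the looser gate and the stricter cell filter, 4 without the low-count filter and 2 with the stricter gate and with no cell filter. Without dividing cells 1 member passed there, Cavin3 (log2 0.38, adjusted p = 0.0205) and not Cavin2. In artery minus vein (2291 genes) the number was 1094 with DESeq2, 996 with the stricter cell filter and 1476 without dividing cells. In capillary minus the mean of artery and vein (737 genes) it was 390 with DESeq2, 459 with the looser gate, 2986 with Leiden clusters and 215 with the stricter cell filter; members passing (1) were 3 without the low-count filter, 3 with Leiden clusters, 0 with the stricter cell filter and 2 without dividing cells. In lymphatic minus blood classes (4726 genes) it was 2822 with DESeq2 and 3073 with the stricter cell filter. The stricter cell filter keeps fewer cells; for the other shifts the cause was not tested. Leiden clusters highest for the tip list were counted as capillary, so tip comparisons were not run there and lymphatic cells were set against 3 blood classes.

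Without the replicate block, 42 genes and 0 members passed in tip minus capillary, 1518 genes in artery minus vein and 354 genes in capillary minus the mean of both; the block also decided Cavin2 in artery minus vein (adjusted p = 0.222 without it) and changed no other member's call in the 4 comparisons.

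Changes of sign were met for members that had not passed. They were Cav1 (log2 -0.015) and Cavin1 (-0.10) in tip minus capillary with the stricter gate, Ehd2 there without dividing cells (0.049) and Ehd4 with the looser gate (0.0085), Cavin3 in artery minus vein with Leiden clusters (0.0353), and Cav1 in capillary minus the mean of artery and vein without dividing cells (0.0215). Cavin3 in the last comparison was -0.0035 with DESeq2, -0.0034 with RLE size factors, -0.0033 without the low-count filter, -0.0418 with the stricter gate, -0.0407 with the looser gate, -0.0356 without cells with stromal UMIs, -0.022 with no cell filter, -0.0831 with the stricter cell filter and -0.0491 without dividing cells. Cavin3 in lymphatic minus blood classes was -0.0133 without cells with stromal UMIs. Leaving out a library leaves no residual degrees of freedom, so the values of each library stand beside the results with no test. Leaving out the 5% of cells with most UMIs, chosen after seeing the data, changed no call of the 8 genes in the F test or the 4 comparisons. Without thinning, 67 of the 80 shares of cells with a UMI lay above the interval of the thinned share and 0 below. Counting intervals cover counting error alone, and 2 libraries limit what can pass.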
